A study of Mus musculus with 2 samples.

Results

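Mir128-1 and Mir128-2 are the genes of the neuronal microRNA miR-128, one within the R3H domain gene R3hdm1 and the other within Arpp21, which encodes a cAMP-regulated phosphoprotein of neurons. They were taken by their Ensembl identifiers, ENSMUSG00000065520.2 for Mir128-1 and ENSMUSG00000065441.2 for Mir128-2, and make up 2 of the 2202 microRNA genes in the deposited tables. The tissue was left cerebral cortex, taken at 25 days of age from females of the strain B6CASTF1/J, hybrid offspring of C57BL/6J and CAST/EiJ parents. RNA below 30 nt was sequenced in 2 libraries of this 1 group, so no treatment, genotype or age was set against another. The labels number the animals apart but give them a common donor record. P-values between the libraries set the difference between these samples against counting error only, and that difference may be technical.

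A microRNA hairpin is cut from a longer transcript, here from introns of the host genes, and then yields a short duplex of a 5p and a 3p arm. One arm guides Argonaute proteins to messenger RNAs, mainly through its seed, bases 2 to 8. In brain the 3p arm of miR-128 is the guide, and mice that lack miR-128 in forebrain neurons are known to become hyperactive and to have seizures.

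The arms and hairpins are shown because they set which reads can be given to a single locus. All are RefSeq sequences on GRCm38.p6, the build that mm10 names, and both members matched by symbol. Mir128-1 lies on the plus strand at chr1:128202361-128202430 and Mir128-2 on the minus strand at chr9:112118636-112118711. In the arms, capitals mark the seed.
miR-128-3p (both genes): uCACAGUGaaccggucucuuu
miR-128-1-5p: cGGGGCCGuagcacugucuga
miR-128-2-5p: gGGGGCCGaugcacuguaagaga
In the hairpins, capitals mark the longest stretch that both hairpins hold.
Mir128-1 hairpin: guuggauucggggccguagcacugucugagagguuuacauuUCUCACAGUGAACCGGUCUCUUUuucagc
Mir128-2 hairpin: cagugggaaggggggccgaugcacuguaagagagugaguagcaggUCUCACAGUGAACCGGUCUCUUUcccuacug

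The 3p arm is identical at both loci over its 21 nt. The 5p arms share their seed as well, and they were identical at 16 of 21 bases when aligned from their first base. Counted from the 5′ end of the arm, with the base of miR-128-1-5p first, they differ by C1G, U9A, A10U, C18A and U19A. Among all RefSeq mouse mature microRNAs in the table used, the seeds CACAGUG of the 3p arm and GGGGCCG of the 5p arms each belonged to these 2 genes and to no other. The loop between the arms is 14 nt in both hairpins, while the Mir128-1 hairpin has 70 nt and 50% G and C and the Mir128-2 hairpin has 76 nt and 56.6%. The predicted minimum free energy was -29.3 kcal/mol for the Mir128-1 hairpin and -37.3 kcal/mol for the Mir128-2 hairpin, with 74.3% and 73.7% of their bases paired.

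The stretch that both hairpins hold is 23 nt long, begins 2 bases before the 3p arm and ends at its last base. A read of 22 nt can start at 49 positions of the Mir128-1 hairpin, and at 47 of them (95.9%) the stretch was found in no other of the 2202 hairpins. For Mir128-2 this held at 53 of 55 positions (96.4%). Every stretch found elsewhere was found in the other Mir128 hairpin alone. The annotated 3p arm falls within these stretches, as the map of the hairpins shows. A read that begins at the first base of the 3p arm matches both loci at lengths of 18 to 21 nt. Its sequence belongs to 1 locus at 22 nt or longer. At 22 nt this rests on 1 base after the arm, u in Mir128-1 and c in Mir128-2. With up to 1 mismatch allowed, 45 of the 49 stretches of Mir128-1 (91.8%) were in no other hairpin. For Mir128-2 this held for 51 of 55 (92.7%). A read that begins at the first base of either 5p arm belongs to 1 locus at every length tested, 18 to 29 nt. The tables hold reads placed at several loci in a class of their own, outside the gene counts. The counts below are thus reads that were given to a single locus, they join both arms, and they do not measure how much miR-128-3p each gene supplies.

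**Figure D1:**
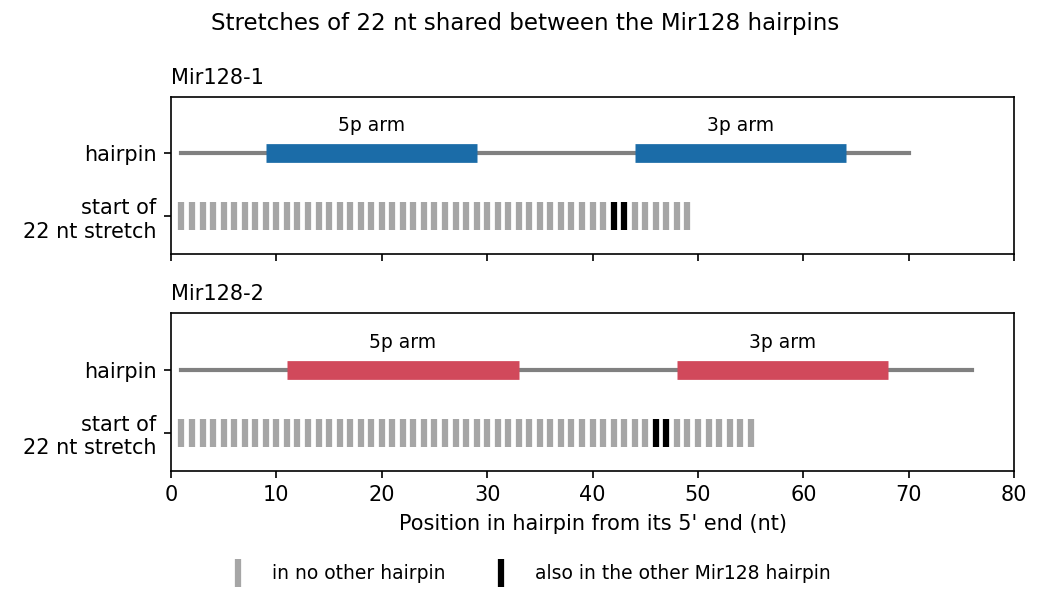
Position along each Mir128 hairpin in nt from its 5′ end (horizontal axis), with thick bars for the annotated arms and ticks for every start of a 22 nt stretch. The 2 black ticks in each panel mark starts whose stretch is also in the other Mir128 hairpin, just before the 3p arm, and all other starts are grey.

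Both genes lie on the same strand as their hosts, within introns only. R3hdm1 (ENSMUSG00000056211.13) spans chr1:128103301-128237736 on the plus strand, and Mir128-1 overlapped no exon in the 2 of 16 annotated R3hdm1 transcripts that span the hairpin. On the longest coding one, Mir128-1 sits in intron 19, which is 14107 bp long, with 5263 bp to the exon before it and 8774 bp to the exon after it. Arpp21 (ENSMUSG00000032503.18) spans chr9:112065091-112235938 on the minus strand, and Mir128-2 overlapped no exon in the 9 of 31 Arpp21 transcripts that span the hairpin. On the longest coding one it also sits in intron 19, which is 51873 bp long, with 471 bp to the exon before it and 51326 bp to the exon after it. Each host holds 0 other annotated microRNA genes.

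**Figure D2:**
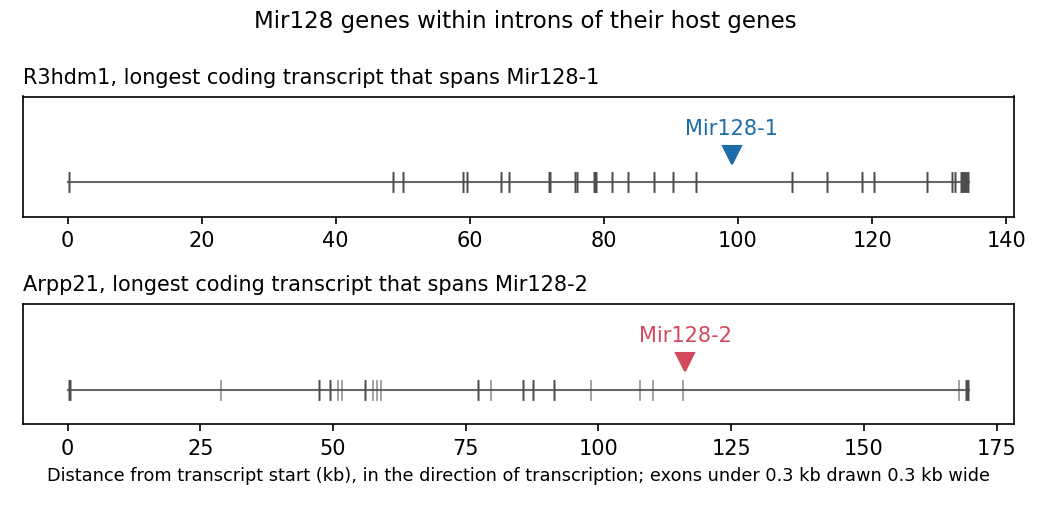
Distance from the transcript start in kb, in the direction of transcription, for the longest coding transcript that spans each gene. Vertical marks are exons and triangles are the hairpins. Mir128-1 stands within a 14107 bp intron of R3hdm1, and Mir128-2 stands 471 bp after an exon, at the head of a 51873 bp intron of Arpp21.

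The libraries held 3017058 counts on microRNA genes in replicate 1 and 3209361 in replicate 2, which is 35.5% and 34.5% of all reads. Reads placed at several loci were 40.3% and 39.0% of all reads. Levels are given in CPM, counts scaled to 1000000 counts on microRNA genes, and the limit that a count of 0 sets is 0.994 CPM in replicate 1 and 0.935 CPM in replicate 2. The 24 genes of the neuronal marker list held 22.6% and 21.5% of counts, and the red blood cell, liver and striated muscle lists held between 0.00442% and 0.00754% per library. The neuronal list includes both Mir128 genes, and most of its share lay in Mir139, at 155820 and 141898 CPM. Its median level was 324 CPM. Of the neuronal list 21 genes had at least 10 counts in both libraries, and the 3 genes of miR-124, another neuronal microRNA with several loci, had between 0 and 9 counts per library. Of the 9 muscle genes, 5 were at 0 in both libraries. These counts leave out reads placed at several loci, so a low count or a 0 does not show that a microRNA was absent. Glial and vascular markers were present, with 4.06% and 3.56% of counts on astrocyte genes 1.20% and 1.26% on endothelial and mural genes, 0.366% and 0.563% on oligodendrocyte genes and 0.284% and 0.240% on microglial and immune genes in replicates 1 and 2. The oligodendrocyte, endothelial and mural, red blood cell and liver lists, like both Mir128 genes below, held the lower share of counts in replicate 1. The endothelial and mural genes were divided. Mir126a had 17240 counts in replicate 1 and 28355 in replicate 2, while Mir143 had 16611 and 11211 and Mir145a had 2390 and 760. The liver list is Mir122 alone, with 141 and 164 counts. The neuronal, astrocyte, microglial and immune, and striated muscle lists held the higher share in replicate 1. Mir139, with most of the neuronal share, was also the higher there, but the neuronal genes were divided. With library totals as sizes, the exact binomial test described below called 6 of its 22 tested genes higher in replicate 1 and 8 lower. The muscle genes were divided too, with 49 and 14 counts for Mir499 and 82 and 110 for Mir206 in replicates 1 and 2. The part of any list in the difference of the Mir128 genes was not tested. In bulk tissue, fewer cells of a type and less RNA per cell cannot be told apart.

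Both Mir128 genes were well above the detection limit, and Mir128-1 was the higher in each library. Mir128-1 had 35767 counts in replicate 1 and 46590 in replicate 2. That is 1.19% (exact 95% interval 1.173 to 1.198) and 1.45% (1.439 to 1.465) of microRNA gene counts. Its level averaged 13186 ± 1882 CPM (SD, n = 2) and ranked 15th among the 2202 genes, 16th in replicate 1 and 15th in replicate 2. Mir128-2 had 8612 and 11290 counts, or 0.285% (0.2795 to 0.2915) and 0.352% (0.3453 to 0.3583). Its level averaged 3186 ± 469 CPM (SD, n = 2) and ranked 52nd, with ranks of 51 and 43 in the single libraries. The levels of the genes did not overlap, and replicate 2 was the higher library for both. Of the 395 genes with at least 10 counts in each library, 343 (86.8%) had a lower mean level than Mir128-2, and the median of the 395 was 101 CPM. Intervals cover counting error only, with each read taken as independent. PCR copies without molecular identifiers are not independent molecules, so the intervals may be too narrow. The tests on counts below share this limit.

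**Figure D3:**
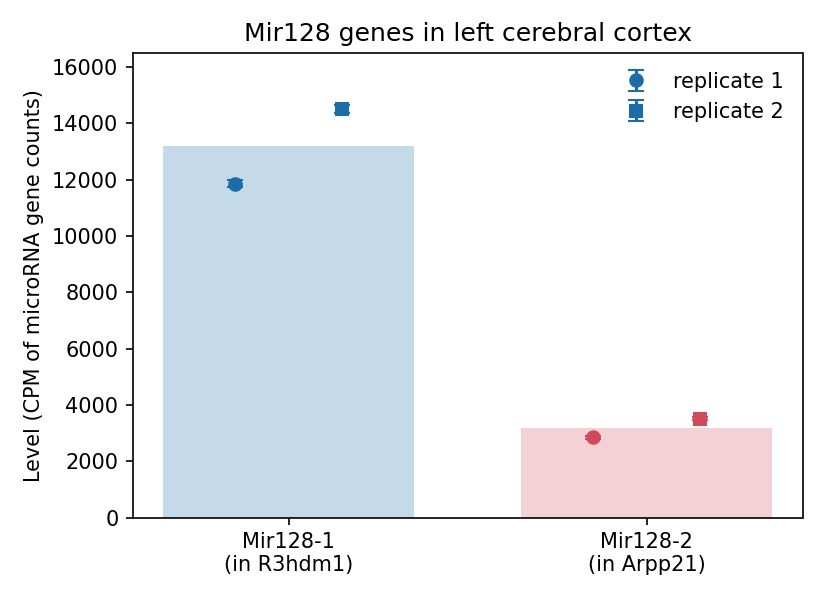
Level in CPM of microRNA gene counts (vertical axis) of Mir128-1 and Mir128-2, with a point per library, its exact 95% counting interval, and a bar for the mean of both libraries. Mir128-1 stands at 11855 and 14517 CPM and Mir128-2 at 2854 and 3518 CPM in replicates 1 and 2.

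No Mir128 read was counted on the opposite strand. The opposite-strand column held 0 counts for both genes in both libraries, and their counts in the either-strand column equalled those on their own strand. The same held for most genes, since 367 of the 395 detected genes had 0 opposite-strand counts and 349 had equal either-strand and own-strand counts. Across all microRNA genes, 93.8% and 93.7% of stranded counts were on the own strand. Together the Mir128 genes held 1.47% and 1.80% of microRNA gene counts and 0.523% and 0.623% of all reads. For each read counted on a Mir128 gene, the class of reads placed at several loci held 77.2 reads in replicate 1 and 62.6 in replicate 2. How many of them are miR-128-3p was not tested, because the tables do not divide that class by sequence.

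The split of counts between the loci differed between the libraries by less than counting error. The ratio of Mir128-1 to Mir128-2 counts was 4.15 (exact 95% interval 4.056 to 4.253) in replicate 1 and 4.13 (4.043 to 4.213) in replicate 2, a mean of 4.14 ± 0.0187 (SD, n = 2). Mir128-1 thus held 80.6% and 80.5% of the counts of both genes. Per nt of hairpin the ratio was 4.51 and 4.48. The ratio in replicate 1 over that in replicate 2 was 1.01 (95% interval 0.975 to 1.04, log2 0.0092, from -0.036 to 0.055), and the difference did not pass a two-sided Fisher's exact test (p = 0.69). A change of the ratio smaller than that interval was not detectable at this depth.

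The same test was run on other pairs of genes that share a mature sequence, to show how often the split of a pair differs between these libraries. RefSeq gave 40 such pairs, 38 of them had both genes in the tables, and 21 had at least 10 counts in total for each gene. Fisher's exact test with Benjamini-Hochberg adjustment called 11 of the 21 pairs (52.4%) at an adjusted p under 0.05, and Mir128 was not among them (exact test, adjusted p = 0.72). The Mir128 pair had the second smallest change of ratio of the 21 pairs, after Mir30c-1 and Mir30c-2, whose interval was wider (log2 -0.23 to 0.23). The median absolute log2 change over the 21 pairs was 0.30, and over the 8 pairs with both genes at 100 CPM or more it was 0.12. The pairs differ widely in depth and Mirlet7c-2 stands in 2 of them, so these counts describe the libraries and give no rank to the biology.

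Of the neuronal microRNAs with 2 loci and a shared mature sequence, Mir138 was the closest to Mir128 in level. Mir138-1 averaged 5122 ± 13.4 CPM and Mir138-2 2602 ± 195 CPM (SD, n = 2). Their ratio was 1.87 in replicate 1 and 2.07 in replicate 2, which differed beyond counting error (log2 -0.15, Fisher's exact test, adjusted p = 1.22e-06). Mir129-1 and Mir129-2 averaged 340 ± 228 and 1252 ± 669 CPM, and their ratio was 0.230 and 0.290 (log2 -0.34, exact test, adjusted p = 7.56e-05). Mir218-1 and Mir218-2, which lie in the axon guidance genes Slit2 and Slit3, averaged 18.4 ± 1.69 and 130 ± 6.36 CPM, with a ratio of 0.128 and 0.156 whose change did not pass (log2 -0.29, 95% interval -0.88 to 0.30, exact test, adjusted p = 0.49). The Mir218 interval is far wider than that of Mir128 at its lower counts. Whether the change of ratio differs between these pairs and Mir128 was not tested.

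**Figure D4:**
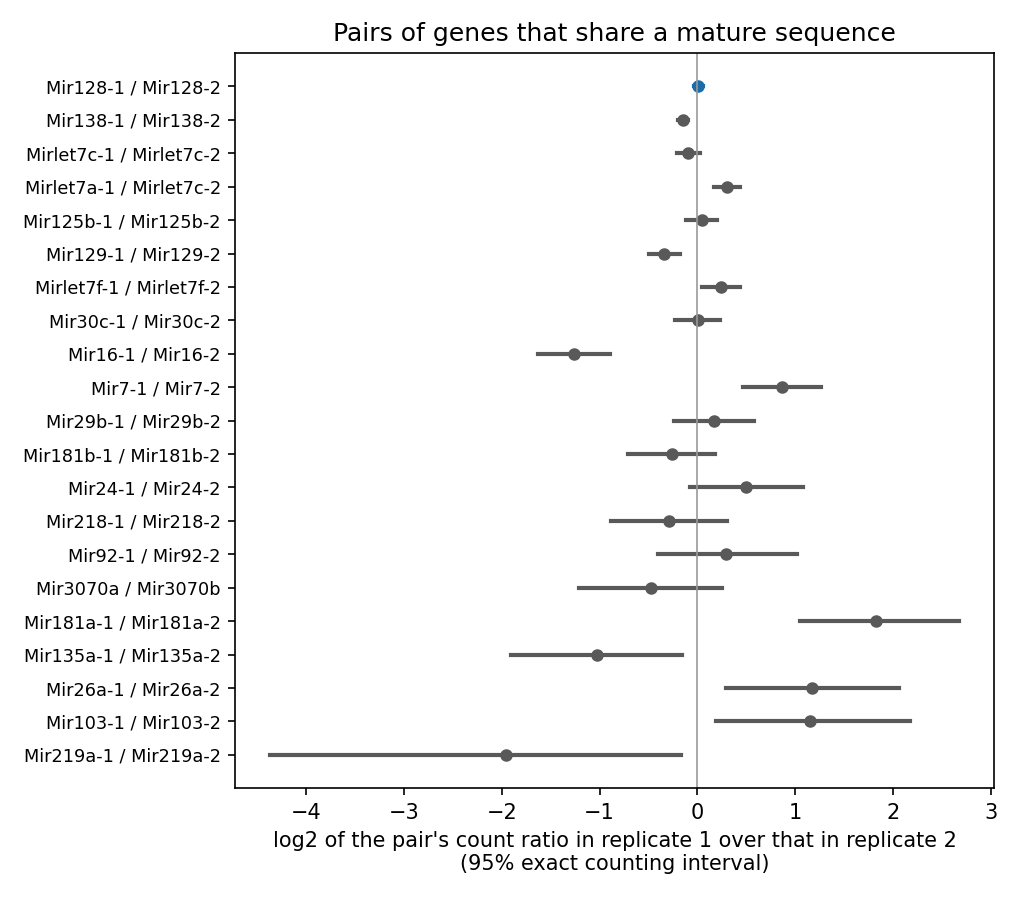
Log2 of each pair's count ratio in replicate 1 over that in replicate 2 (horizontal axis), with exact 95% counting intervals, for the 21 tested pairs that share a mature sequence, the narrowest interval at the top. The Mir128 pair, at the top, spans -0.036 to 0.055 and includes 0.

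Between the libraries, both Mir128 genes were slightly lower in replicate 1 than in replicate 2. After TMM scaling, which sets library sizes by the ratios of most genes, the log2 ratio of replicate 1 over replicate 2 was -0.064 (95% interval -0.084 to -0.044) for Mir128-1 and -0.073 (-0.113 to -0.032) for Mir128-2. These are 1.05-fold differences in each gene. An exact binomial test with Benjamini-Hochberg adjustment over all tested genes called both (adjusted p = 1.12e-09 for Mir128-1 and 0.000976 for Mir128-2). The test compares 2 libraries by counting error and no condition, and it called 280 of 496 genes (56.5%), 128 of them (25.8%) lower in replicate 1. That share depends on the count minimum, at 37.2% of 742 genes with at least 1 count in total and 81.8% of 291 genes with at least 100. Of the 99 genes that averaged 1000 CPM or more, 98 were called and the median absolute log2 ratio was 0.42. Mir128-1 and Mir128-2 were number 4 and 5 of those 99 from the smallest absolute ratio after TMM scaling, but number 42 and 43 with library totals. With library totals in place of TMM, which shifts every log2 ratio by 0.23, the ratios were -0.29 for Mir128-1 and -0.30 for Mir128-2, and the 282 genes called divided into 102 higher and 180 lower in replicate 1.

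**Figure D5:**
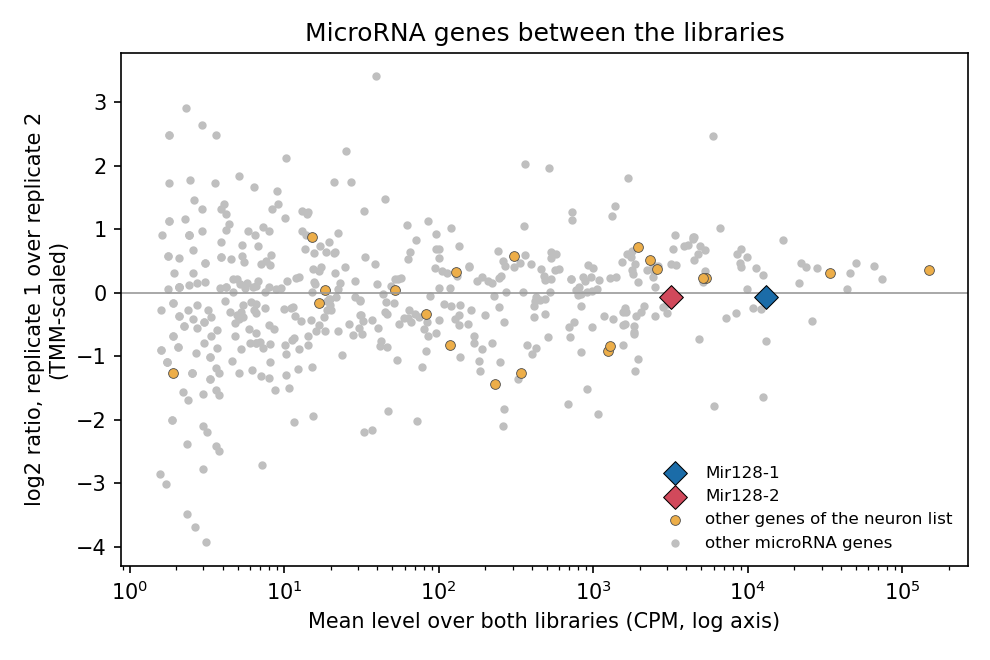
Log2 ratio of replicate 1 over replicate 2 after TMM scaling (vertical axis) against the mean level in CPM on a log axis, for 493 of the 496 tested genes; 3 genes at 0 in a library are left out. Diamonds mark Mir128-1 at -0.064 and Mir128-2 at -0.073, close to the zero line, and filled circles mark the other genes of the neuronal list.

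Within the neuronal list, Mir128-1 and Mir128-2 stood at places 3 and 6 by mean level. These places leave out reads placed at several loci, so they do not order the mature microRNAs by abundance. Above Mir128-1 were Mir139, a gene within Pde2a, at 148859 ± 9844 CPM and Mir132, an activity-regulated microRNA of neurons, at 34178 ± 1376 CPM (SD, n = 2). The Mir128 genes together held 6.50% of the list's counts in replicate 1 and 8.39% in replicate 2. Of the 22 list genes tested between the libraries, 18 were called, 10 higher in replicate 1 and 8 lower. Over all tested genes 280 of 496 (56.5%) were called, and 81.8% of the 291 genes with at least 100 counts in total. With library totals 14 of the 22 list genes were called, 6 higher and 8 lower, against 282 of all 496 (56.9%). The list's median log2 ratio was 0.046, against 0.0090 over all tested genes with counts in both libraries, and it turned to -0.18 with library totals, against -0.22 over those genes. Mir139 (log2 0.36) and Mir132 (log2 0.31) were higher in replicate 1 after TMM scaling, while both Mir128 genes were lower. The directions were the same in plain CPM, where Mir139 had 155820 in replicate 1 and 141898 in replicate 2 and Mir132 had 35151 and 33205.

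By the distance of log2(CPM + 1) levels over the 2 libraries, the genes most like Mir128-1 were Mir330 (distance 0.24, with 10071 and 14134 CPM), Mir652 (0.26, with 12699 and 12247 CPM) and Mir99a (0.44, with 9074 and 12506 CPM). Those most like Mir128-2 were Mir30e (0.10, with 2965 and 3734 CPM), Mir100 (0.16, with 2569 and 3403 CPM) and Mir485 (0.23, with 2435 and 3548 CPM). With 2 libraries this likeness is one of level, and the Mir128 genes are not each other's nearest.

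The 3p arms of Mir27a and Mir27b carry the 7 seed letters of miR-128-3p 1 base further along, at bases 3 to 9, in capitals below for the more abundant gene.
miR-27b-3p: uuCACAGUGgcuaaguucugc
Their own seeds, bases 2 to 8, hold 6 of the 7 letters of the miR-128-3p seed in a row. Mir27b, a gene known from astrocytes and vessels, averaged 1568 ± 402 CPM and Mir27a 107.3 ± 20.98 CPM (SD, n = 2), both below Mir128-2 in each library. Mir27b had 1284 CPM in replicate 1 and 1852 CPM in replicate 2.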

How the data were processed

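The deposited tables hold raw counts of reads per microRNA gene, which the authors made on mm10 with GENCODE annotation M21, according to the descriptions deposited with them. Neither these nor the labels name an aligner or a counter. The roles of the either-strand, own-strand and opposite-strand columns follow from their values, and the own-strand column was used. The 4 read classes (unmapped, placed at several loci, outside genes, ambiguous) were left out of library sizes. The members, lists and tests were chosen with earlier results of these data known, and the test over pairs and the searches of all transcripts and with 1 mismatch were added after the data were seen.

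With 1 group, the libraries were compared by an exact binomial test across all genes with at least 10 counts in total. It used TMM sizes from edgeR 4.0.16 and Benjamini-Hochberg adjustment at 0.05. The test was checked on simulated data that held counting noise only, so the check did not cover further variation between libraries. Alternatives were library totals, DESeq2 1.42.0 size factors, the either-strand column, other count minimums, thinning and leaving out a replicate. Depth was 3017058 and 3209361 counts, intervals are exact (Clopper-Pearson, 95%), and a count of 0 was taken to allow 3 counts. Named genes were the members, the 3 nearest in level to each, the Mir138, Mir129 and Mir218 pairs, genes with the same or an overlapping seed and the 3 highest neuronal genes. Shared stretches were sought on both strands of 2202 GENCODE hairpins, not in the genome. Hairpins were folded with RNAfold 2.7.2. Python 3.11.15, scipy 1.17.1 and R 4.3.3 were used.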

Additional observations from a re-analysis of the deposited data

How the results depend on the processing

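Of 57 values recomputed under alternatives, 10 moved beyond the limit set for their kind and 0 reversed. The ratio of the loci and its test could not move with the either-strand column, where both genes have the same counts as on their own strand. The limit was 1 SD between replicates for levels, ranks and the ratio of the loci, the side of the test for ratios between libraries, a factor of 1.5 for the number of genes called and the exact 95% interval for shares of windows. With all reads as the denominator, the mean level was 4614 CPM for Mir128-1 and 1115 CPM for Mir128-2. Counts per hairpin length gave a log2 ratio of the loci of 2.17, against 2.05 for plain counts. Windows of 24 nt and of 28 nt were 100% unique in both hairpins. The windows overlap and are all those of a fixed sequence, so the exact interval is a yardstick here and no sampling error. A share of 100% lies outside it by construction. The rank of Mir128-1 was 14 in the either-strand column. Without either replicate in turn the rank was 15 to 16 for Mir128-1 and 43 to 51 for Mir128-2, the level was 11855 to 14517 CPM and 2854 to 3518 CPM, and the log2 ratio of the loci was 2.045 to 2.054. Each of 2 values always lies within 1 SD of their mean. The levels and the ratio of the loci thus could not move when a replicate was left out. The log2 ratio between the libraries kept its sign and its call under all 6 alternatives, from -0.29 to -0.058 for Mir128-1 (adjusted p between 9.86e-183 and 3.2e-08 by the exact binomial test) and from -0.30 to -0.067 for Mir128-2 (6.63e-48 to 0.00255), so its size depends on the scaling. No paired analysis was possible because there is 1 group. Depth sets the interval of the change in the ratio of the loci, log2 -0.036 to 0.055.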
